A study of Sus scrofa with 6 samples.

Results

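ISG15, IFI6, MX1, MX2, ISG12(A) and IRF7 are interferon-stimulated genes, and these 6 genes were taken by symbol from the 30477 genes counted in porcine midbrain-like organoids (pMLOs). They were picked after their levels in these same libraries, by day and in marker-gated cells, had been seen, so those levels are given as a description with no test. The organoids were grown from 1 line of Sus scrofa embryonic stem cells, IVF_1_ pESC_FIW, derived from an in vitro fertilised blastocyst and kept on mouse feeder fibroblasts that were depleted before organoid formation, and no interferon treatment was among the samples. All libraries shared the same course, in which embryoid bodies were patterned with SB431542, Noggin, SHH-C24II and CHIR99021, then received FGF8, and then FGF8 with BDNF and ascorbic acid. Matrigel embedding and shaking culture with BDNF, GDNF, ascorbic acid, db-cAMP and DAPT followed after the first sampling, so D28 and D45 organoids had been embedded and exposed to DAPT and D11 organoids had not. Organoids were sampled at D11, D28 and D45 of culture, each day giving 2 libraries (A and B) that the study calls biological duplicates, and how many organoids went into a library is not given in the sources used here.

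Interferons are secreted proteins that cells release after sensing viral or misplaced nucleic acid. Type I interferons bind the IFNAR1 and IFNAR2 receptor, whose kinases JAK1 and TYK2 phosphorylate STAT proteins such as STAT2. These join IRF9 and bind the interferon-stimulated response element upstream of target genes, and USP18 and the SOCS proteins damp the signal. Among the members, ISG15 encodes a ubiquitin-like protein that is attached to other proteins. MX1 and MX2 encode dynamin-like GTPases that block viruses, and IRF7 is the transcription factor that amplifies interferon gene transcription. IFI6 and ISG12(A), a pig gene of the IFI27 family, encode small hydrophobic membrane proteins.

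After the cell filter, 103519 of 104820 barcodes remained, with 13954 to 21615 cells and 106851387 to 180098372 UMIs per library. Median UMIs per cell were 10741 and 8821 at D11, 5499.5 and 8095 at D28 and 2240 and 4242 at D45. No doublet caller was run, and cells with more than 7000 genes were left out. Of 103555 distinct barcode sequences, 1256 occurred in 2 or more libraries, and a pair of libraries shared 55 to 119. The labels call the cells midbrain dopaminergic neurons. TH, the rate-limiting enzyme of dopamine synthesis, was measured at 11.5 and 13.97 CPM at D11, 55.1 and 32.5 at D28 and 17.1 and 40.4 at D45, while all 5 neuron, 4 astrocyte, 4 fibroblast and 7 floor plate markers were also detected. Levels are a gene's share of all UMIs summed over the kept cells of a library, in CPM, and in such sums fewer cells of a type and less RNA per cell cannot be told apart. D28 replicate A and replicate B differed in fibroblast markers, whose summed level over 4 genes was 915.9 and 109.0 CPM.

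The promoters of ISG15, IFI6, ISG12(A) and MX2 are shown as examples of the letters that interferon-activated factors recognise, and a member whose promoter is not shown is not thereby said to lack them. The 250 bases upstream of each annotated gene start were read from the RefSeq annotation of Sscrofa11.1, the build of the deposited counts, and none of these windows overlapped another annotated protein-coding gene. ISG15 (ENSSSCG00000040575) lies on the plus strand of chromosome 6 and its window is chr6:63362951-63363200. IFI6 (ENSSSCG00000034570) lies on the minus strand with the window chr6:84858073-84858322, and ISG12(A) (ENSSSCG00000035297) on the plus strand with chr7:115356369-115356618. MX1 (ENSSSCG00000012077) and MX2 (ENSSSCG00000012076) are neighbours on the plus strand of chromosome 13. The MX2 window is chr13:204798383-204798632, and the MX2 model is partial at its start, so its true start may lie elsewhere. Capitals mark matches, on either strand, to the core of the interferon-stimulated response element with a 2-base spacer (GAAANNGAAA or TTTCNNTTTC) or to a form with a 1-base spacer (GAAANGAAA or TTTCNTTTC), which was added after the sequences had been read.
ISG15: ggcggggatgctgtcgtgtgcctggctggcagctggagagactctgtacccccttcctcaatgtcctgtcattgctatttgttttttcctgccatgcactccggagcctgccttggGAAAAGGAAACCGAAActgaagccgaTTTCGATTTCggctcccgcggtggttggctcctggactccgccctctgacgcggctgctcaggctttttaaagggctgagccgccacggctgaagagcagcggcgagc
IFI6: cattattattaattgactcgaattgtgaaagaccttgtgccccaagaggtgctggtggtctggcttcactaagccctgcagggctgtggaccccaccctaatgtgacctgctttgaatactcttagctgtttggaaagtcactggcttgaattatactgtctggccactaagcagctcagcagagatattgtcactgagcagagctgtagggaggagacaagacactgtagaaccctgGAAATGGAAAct
ISG12(A): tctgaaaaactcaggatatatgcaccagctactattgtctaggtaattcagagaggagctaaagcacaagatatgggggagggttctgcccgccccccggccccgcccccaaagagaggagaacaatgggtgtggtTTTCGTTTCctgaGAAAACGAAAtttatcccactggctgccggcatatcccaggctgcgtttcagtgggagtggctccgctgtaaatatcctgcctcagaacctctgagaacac
MX2: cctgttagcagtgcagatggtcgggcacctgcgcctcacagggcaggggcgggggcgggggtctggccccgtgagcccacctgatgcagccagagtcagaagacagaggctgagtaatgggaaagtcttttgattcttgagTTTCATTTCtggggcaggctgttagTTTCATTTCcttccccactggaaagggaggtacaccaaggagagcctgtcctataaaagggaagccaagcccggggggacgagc
ISG15 held 3 matches with the 2-base spacer, beginning 134, 128 and 108 bases upstream of the start, and the first 2 of these overlap. ISG12(A) held 1 match with a 2-base spacer at 101 bases and 1 with a 1-base spacer at 114 bases, and the IFI6 match lay 12 bases upstream of the annotated start. MX2 held 2 matches, both with the 1-base spacer. The window of IRF7 (ENSSSCG00000012853, minus strand, chr2:375573-375822) held neither form, which says only that these letters are not in this window. Over all 19337 RefSeq protein-coding promoters of the same length, 2.99% held the 2-base form and 2.76% the 1-base form, against 24.7% and 6.49% of the 77 promoters found for the other listed genes of the pathway.

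All 6 members were lowest at D11, highest at D28 and between these at D45, with no overlap of the libraries of different days. This order without overlap was met by 6.77% of the 22197 genes that passed the filter on low counts. Since the members were chosen for their levels by day, nothing is read from that count.

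ISG15 was at 7.57 and 5.76 CPM in D11 replicates A and B, at 357.5 and 377.5 CPM at D28 and at 21.7 and 54.3 CPM at D45. The D28 mean was 55.1-fold the D11 mean and 9.67-fold the D45 mean, and the D45 libraries differed from each other more than the D28 libraries did. IFI6 was at 7.52 and 5.98 CPM at D11, 1175 and 1072 CPM at D28 and 199.0 and 309.6 CPM at D45. The D28 mean was 166-fold the D11 mean, the widest gap of the 6 members, and the D45 mean was still 37.7-fold the D11 mean.

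MX1 was at 6.55 and 7.57 CPM at D11, 89.5 and 134.8 CPM at D28 and 12.7 and 20.7 CPM at D45. Its neighbour MX2 was at 0.758 and 0.533 CPM at D11, 4.78 and 8.95 CPM at D28 and 0.909 and 0.951 CPM at D45. The MX2 level at D45 was 1.44-fold that at D11, a small gap resting on 96 to 121 UMIs per library, whereas the D28 mean was 10.6-fold the D11 mean. ISG12(A) was at 4.98 and 4.72 CPM at D11, 158.8 and 187.4 CPM at D28 and 23.5 and 41.1 CPM at D45, a 35.7-fold D28 to D11 ratio. IRF7 was at 2.64 and 2.89 CPM at D11, 18.9 and 14.4 CPM at D28 and 5.91 and 7.84 CPM at D45, and its D28 mean was 6.02-fold the D11 mean and 2.42-fold the D45 mean, the narrowest gaps of the 6.

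**Figure D1:**
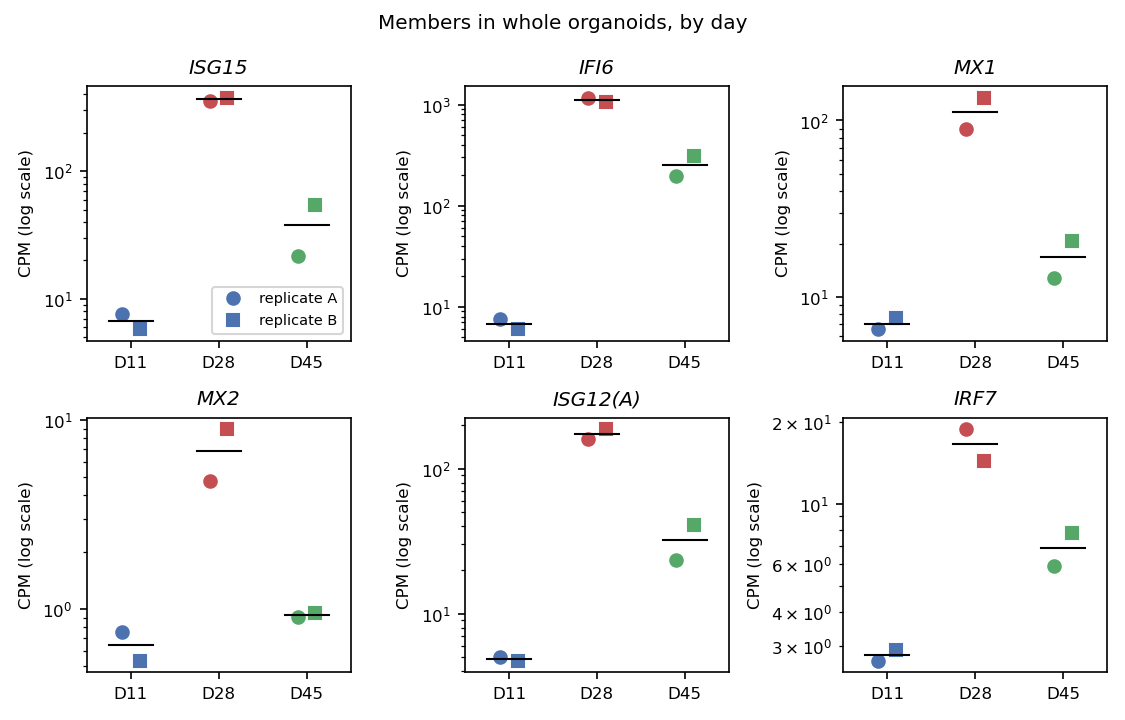
Level of each member in whole organoids (CPM, log axis) at D11, D28 and D45, with circles for replicate A, squares for replicate B and a line at the mean of the 2 libraries. Every D28 point lies above every D45 point, and every D45 point above every D11 point, in all 6 panels, with IFI6 reaching 1175 CPM.

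On the scale of log2(CPM + 1), the median difference of the 6 members was 4.34 for D28 against D11, 1.66 for D45 against D11 and -2.30 for D45 against D28. The members differed in how far they had come back at D45. The log2 difference of D45 against D28 was -3.38 for ISG15, -2.68 for MX1 and -2.17 for IFI6, and that of D45 against D11 ran from 0.23 for MX2 to 5.01 for IFI6.

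The share of cells with a UMI of a member was taken after every cell had been thinned to 1000 UMIs, so that all cells were read at 1 depth. At D11, 1.97% (95% Wilson interval 1.75 to 2.22) and 2.50% (2.27 to 2.75) of cells in replicates A and B had at least 1 member. At D28 the shares were 39.3% (38.4 to 40.3) and 37.8% (36.9 to 38.6), and at D45 11.11% (10.6 to 11.6) and 17.9% (17.3 to 18.6). The days do not overlap, and the D45 libraries lie apart by more than their intervals, which cover counting error only. Without thinning the mean shares were 16.3% at D11, 73.2% at D28 and 35.4% at D45, and thinning left out 1000 and 5305 cells at D11, 4386 and 1931 at D28 and 6735 and 4939 at D45 that were shallower.

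Cells with at least 2 members made up 0.138% and 0.0981% of D11 cells, 14.4% and 15.3% of D28 cells and 1.21% and 2.72% of D45 cells. Of thinned D28 cells with ISG15, 64.3% and 63.2% also had IFI6, against 25.4% and 21.7% of those without ISG15. For ISG12(A) the shares were 21.0% and 26.6% with ISG15 and 5.53% and 5.23% without it, and for MX1 18.7% and 26.4% against 2.98% and 5.08%. No cell type that should lack all members was at hand, so the part of free RNA in these shares was not tested, and the D11 shares are the lowest measured in the same way.

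**Figure D2:**
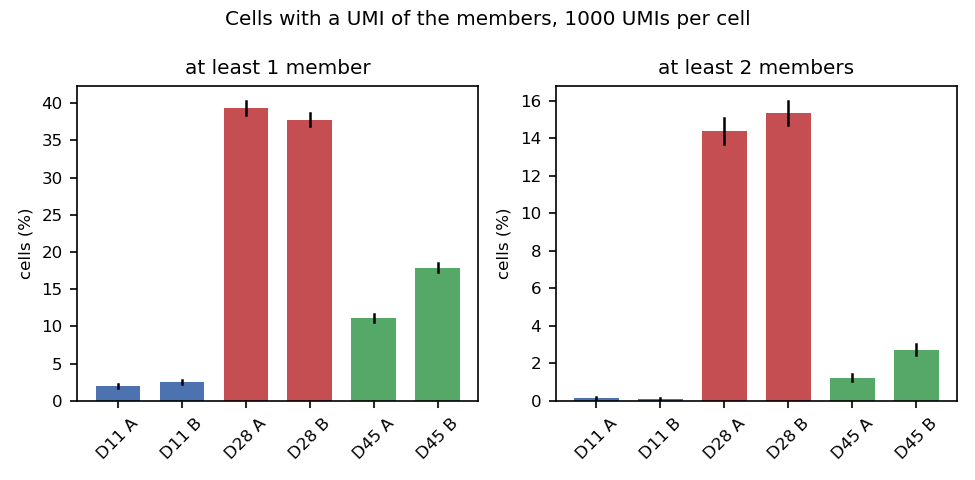
Percent of cells with a UMI of at least 1 (left) or at least 2 (right) of the members in each library, after thinning to 1000 UMIs per cell; black lines are 95% Wilson intervals. The D28 bars stand at 39.3% and 37.8% on the left and at 14.4% and 15.3% on the right, above those of both other days.

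UMIs of the members were concentrated in part of the cells, ranked by the same gene's UMIs without thinning. Other genes were not read in this way, so whether this is particular to the members was not tested. In D28 replicates A and B, the tenth of cells with most ISG15 UMIs held 82.7% and 78.3% of them, and single cells reached 668 and 501 UMIs. For IFI6 the same part of the cells held 78.3% and 74.6%. At D11, ISG15 UMIs were found in 3.71% and 2.98% of unthinned cells, and 1 cell of replicate A alone held 160 of that library's 1198 ISG15 UMIs.

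To see in which cells the D28 level lay, cells were gated by at least 1 UMI of CORIN, a floor plate protease, STMN2, a neuronal microtubule protein, AQP4, the astrocyte water channel, or COL1A1, the fibroblast collagen. The gates overlap and are not cell types. At D28, STMN2+ cells were 74.8% and 69.5% of all cells, 72.8% and 60.4% of CORIN+ cells were also in another gate, and CORIN+ cells had median UMIs of 14285.5 and 14833 against 4023.5 and 6707 in the other cells.

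At D28 all 6 members were higher in CORIN+ than in CORIN- cells of the same library. The members were picked with gate levels seen, and the share of all genes running this way was not taken. Nothing is read from this count. IFI6 was at 2408 and 2179 CPM in the CORIN+ cells of replicates A and B and at 436.5 and 366.5 CPM in the CORIN- cells. ISG15 was at 692.0 and 683.2 CPM against 157.4 and 182.6 CPM, and MX1 at 186.5 and 254.6 CPM against 31.4 and 58.4 CPM. IRF7 had the lowest ratios of the 6 in both libraries, 2.39 and 2.80. ISG12(A) was at 317.9 and 373.7 CPM in CORIN+ cells against 63.7 and 68.6 CPM, and MX2 at 10.7 and 17.3 CPM against 1.27 and 3.64 CPM. CORIN- cells at D28 were themselves above the D11 level of whole organoids for every member. That sets a part of the D28 cells against all D11 cells, and nothing is read from this count either.

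The STMN2 gate ran the other way at D28. IFI6 was at 1033 and 855.8 CPM in STMN2+ cells and at 1690 and 1619 CPM in STMN2- cells, and ISG15 was at 322.5 and 317.8 CPM against 485.0 and 528.3 CPM. All 6 members were lower in STMN2+ cells in both D28 libraries, with ratios of 0.427 to 0.665. Here too the share of all genes was not taken, and nothing is read from the count. Median UMIs there were 6035 and 8271 in STMN2+ cells and 1098 and 6941 in STMN2- cells, so the STMN2- cells of replicate A were shallow. Among thinned D28 cells in the CORIN gate alone, 78.6% (75.3 to 81.5) of 677 and 75.0% (72.6 to 77.3) of 1295 had at least 1 member. In the STMN2 gate alone the shares were 23.4% (22.3 to 24.6) of 5235 and 22.5% (21.5 to 23.5) of 6649 cells. The same gate at D11 had shares of 1.67% and 2.07%.

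In the COL1A1 gate 4 of the 6 members were lower than in the other cells of D28 replicate A and higher than in those of replicate B. IFI6 was at 747.7 CPM in COL1A1+ cells against 1307 CPM in the other cells of replicate A, and at 1390 against 1056 CPM in replicate B. ISG12(A) was at 123.6 against 169.8 CPM in replicate A and at 317.7 against 180.9 CPM in replicate B. MX1 was lower in both, with ratios of 0.517 and 0.925, and IRF7 higher, with 1.04 and 1.25. COL1A1+ cells were 16.04% of replicate A and 2.90% of replicate B, and the D28 AQP4 gate held 127 and 63 cells. Median UMIs at D28 were 10253.5 and 14942.5 in COL1A1+ cells and 4696 and 7967 in the other cells.

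At D45 IFI6 and ISG12(A) were still higher in the CORIN gate by a wide margin, and ISG15, MX1 and IRF7 by a narrow one. IFI6 was at 978.4 and 803.3 CPM in CORIN+ cells against 146.3 and 255.7 CPM, and ISG12(A) at 95.2 and 96.1 CPM against 18.6 and 35.1 CPM. ISG15 was at 28.6 and 64.4 CPM against 21.3 and 53.2 CPM, with ratios of 1.34 and 1.21, and the MX1 ratios were 1.37 and 1.35. For IRF7 the ratios were 1.26 and 1.33. MX2 counted 4 and 3 UMIs in D45 CORIN+ cells, too few for a comparison. The CORIN gate held 542 and 896 cells at D45, of which 83.9% and 86.0% were also in another gate. Their median UMIs were 13780 and 13521.5 against 2086 and 3694 in the other cells.

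AQP4+ cells, 1770 and 2303 at D45, had higher levels of IFI6, ISG15 and ISG12(A) in both libraries, with ratios of 2.12 to 3.68. IFI6 was at 485.1 and 575.6 CPM in them against 143.5 and 241.0 CPM, ISG15 at 47.3 and 106.2 CPM against 16.8 and 40.9 CPM, and ISG12(A) at 60.2 and 70.8 CPM against 16.4 and 33.5 CPM. MX1 had ratios of 1.25 and 1.41, IRF7 of 1.23 and 1.47 and MX2 of 0.468 and 0.814. At D28, where the gate held few cells, the replicates went opposite ways, with ratios in replicates A and B of 0.624 and 1.66 for ISG15, 0.783 and 1.22 for IFI6 and 0.741 and 1.15 for ISG12(A), while MX1 and IRF7 were below 1 in both. Median UMIs at D45 were 9263 and 10726 in AQP4+ cells and 1963 and 3377.5 in the others, and 75.8% of the AQP4+ cells of each library were also in another gate.

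**Figure D3:**
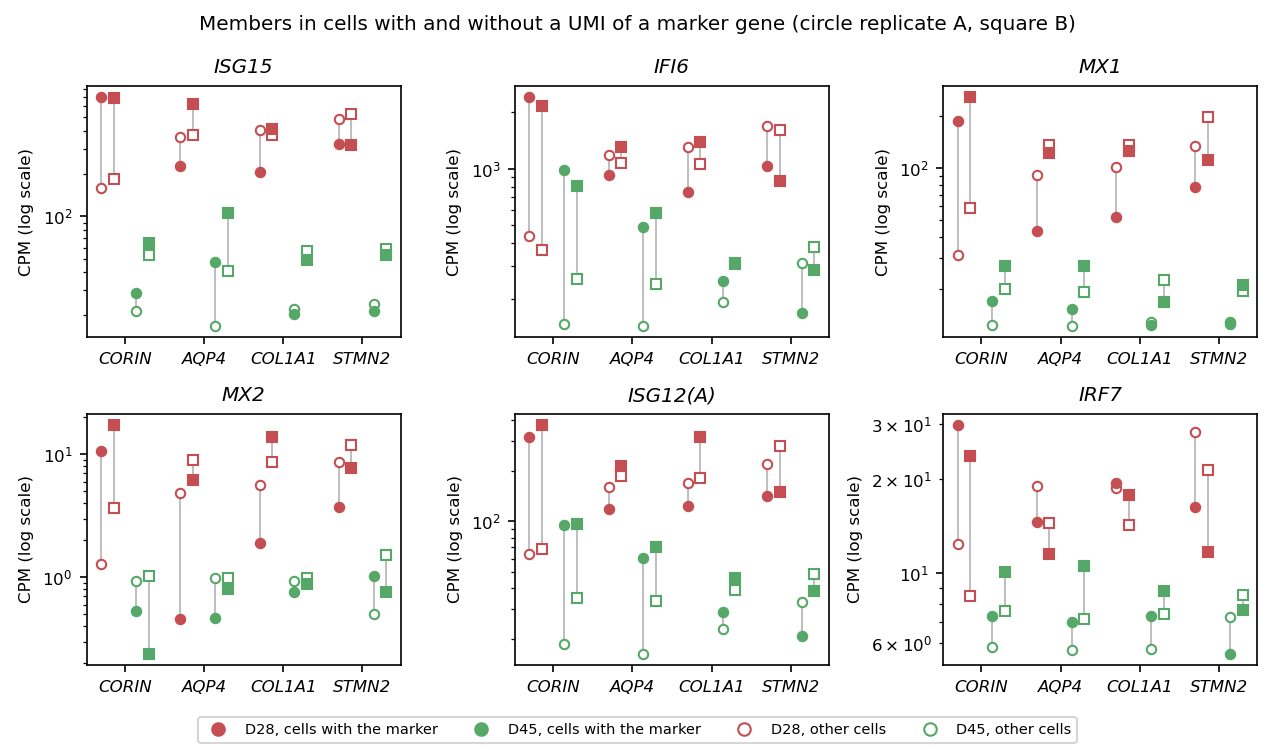
Level of each member (CPM, log axis) in cells with a UMI of CORIN, AQP4, COL1A1 or STMN2 (filled) and in the other cells of the same library (open), for D28 in red and D45 in green, circles for replicate A and squares for replicate B; grey lines join both groups of a library. At D28 filled points lie above open ones in the CORIN column and below them in the STMN2 column for all 6 members, and the D28 AQP4 points rest on 127 and 63 cells, where MX2 counted 1 and 7 UMIs.

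The other genes of the pathway were taken from a list of 89 by role, of which 78 were in the matrices and 73 passed the filter on low counts in whole organoids. The list was chosen with earlier results of these data known, so counts of its genes describe these libraries and are not independent support. They were tested with edgeR's quasi-likelihood test on counts summed per library, with Benjamini-Hochberg adjustment over all genes tested, and a gene is called at an adjusted p below 0.05. Fitted values follow edgeR's TMM scaling, whose factors were 0.844 to 0.870 at D11 and 0.943 to 1.17 at D28 and D45, so they lie below the ratio of CPM in comparisons with D11. Standard errors (SE) are the log2 fold change divided by the root of its F statistic. The 2 libraries of a day allow no exact permutation test on single values below p = 0.333. The D28 and D45 comparisons with D11 share the D11 libraries.

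At D28 against D11, 34 of the 73 pathway genes rose and 1 fell, against 12.5% of all genes called higher and 10.6% called lower. The median log2 fold change of the 73 was 1.29, and that of all genes tested was 0.03. In 56 of the 73 every D28 library lay above every D11 library, against 45.3% of all genes tested. The count of called genes rested on the D11 libraries, since 19 were called without D11 replicate A and 21 without D11 replicate B. The calls of IFNAR1, IFNGR1, IFNLR1, JAK1 and IRF1 were lost without either one.

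Of the ligands, 22 interferon genes were listed in the files with 166 and 277 UMIs in all at D11, 857 and 1864 at D28 and 290 and 365 at D45. Most of these UMIs were assigned to IFN-ALPHA-8, with 688 and 1673 at D28, and IFN-DELTA-1, with 127 and 98. Some porcine interferon genes, such as those of the alpha family, are close copies of each other. The sequences of the 22 were not compared, so which gene the UMIs came from is uncertain. IFNB1 and IFNA1 had no UMI in any library, which allows up to 3 UMIs per library. IFN-ALPHA-8 rose at D28 by 2.91 on the log2 scale (SE 0.38, edgeR adjusted p = 0.00323) and IFN-DELTA-1 by 3.74 (SE 0.60, edgeR adjusted p = 0.00648). At D28, IFN-ALPHA-8 was at 12.9 and 25.3 CPM in CORIN+ cells and at 2.60 and 5.63 CPM in CORIN- cells.

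Among the 6 receptor genes, IFNAR1, IFNGR1 and IFNGR2 rose at D28 against D11 and IFNLR1, the receptor chain for lambda interferons, fell. IFNGR2, the second chain of the interferon gamma receptor, was at 2.31 and 2.79 CPM at D11, 35.5 and 27.8 at D28 and 41.2 and 49.2 at D45. Its D28 against D11 log2 fold change was 3.39 (SE 0.27, edgeR adjusted p = 0.000911), and its D45 against D28 value was 0.35 (edgeR adjusted p = 0.367). IFNAR1 rose by 0.95 (SE 0.15, edgeR adjusted p = 0.00583). IFNAR2, the other chain of the type I receptor, had a log2 fold change of -0.42 (edgeR adjusted p = 0.150) and overlapped between the days. IFNLR1 fell by 2.08 on the log2 scale from 1.06 and 1.15 CPM at D11, and IL10RB missed the threshold at 0.59 (edgeR adjusted p = 0.0591).

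Among the transducers, JAK1, IRF1 and IRF9 rose at D28. IRF9, which gives its complex with STAT proteins its DNA specificity, was at 0.221 and 0.172 CPM at D11, 1.09 and 1.79 CPM at D28 and 0.472 and 0.487 CPM at D45. Its log2 fold change was 2.59 (SE 0.34, edgeR adjusted p = 0.00316). STAT2 had a log2 fold change of 0.79 (edgeR adjusted p = 0.0701), and JAK2, TYK2 and IRF2 had values of -0.06, -0.07 and -0.34 and were not called.

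Of the 14 sensors and adaptors, ZBP1, DHX58 and TLR3 rose at D28. DHX58, a relative of the RNA sensor RIG-I, was at 0.815 and 0.805 CPM at D11, 8.28 and 10.1 CPM at D28 and 1.89 and 3.01 CPM at D45, with a log2 fold change of 3.24 (SE 0.32, edgeR adjusted p = 0.00140). ZBP1, a sensor of Z-form nucleic acid, rose by 4.02 (SE 0.51, edgeR adjusted p = 0.00301) from 0.0316 and 0.0111 CPM at D11, which is 5 and 2 UMIs. The other 11 were not called, among them IFIH1, the RNA sensor MDA5, with a log2 fold change of 2.39 and an edgeR adjusted p of 0.0615.

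USP18, which removes ISG15 from proteins and blocks the type I receptor, was the 1 of 3 inhibitors that rose. It was at 1.39 and 1.64 CPM at D11, 18.5 and 17.8 CPM at D28 and 1.63 and 2.62 CPM at D45, and its log2 fold change was 3.33 (SE 0.32, edgeR adjusted p = 0.00130). Its D28 libraries lay above those of both other days. SOCS1 was at 18.4 CPM in D28 replicate A and 2.55 CPM in replicate B, so that the 2 libraries stood on either side of the D11 values of 3.22 and 4.07 CPM. SOCS3 was at 12.7 and 4.63 CPM at D28 and at 3.74 and 4.20 CPM at D11, and neither SOCS gene was called.

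Of the 42 other interferon-stimulated genes tested, 23 rose at D28 against D11. The 5 with the largest fitted rises were CXCL10, RSAD2, IFI44, TRIM22 and BST2. The places of CXCL10, RSAD2 and TRIM22 depend on the prior count, since these genes were all but absent at D11. CXCL10, a chemokine, was at 0 and 0.00555 CPM at D11, which is 0 and 1 UMI, and at 4.59 and 1.15 CPM at D28, so its fitted fold change depends on the prior count and is not given. RSAD2, which encodes the antiviral enzyme viperin, was at 0.00632 and 0.00555 CPM at D11 and at 1.29 and 1.09 CPM at D28, and its D11 libraries held 1 UMI each. TRIM22 was likewise all but absent at D11, at 0 and 0.00555 CPM, and at 0.477 and 0.627 CPM at D28. IFI44 was at 0.227 and 0.150 CPM at D11 and 25.1 and 32.2 CPM at D28, with a log2 fold change of 6.98 (SE 0.48, edgeR adjusted p = 0.000657). BST2, which encodes the virus-tethering protein tetherin, rose by 5.53 (SE 0.49, edgeR adjusted p = 0.00104). B2M, the light chain of MHC class I, was at 26.5 and 32.1 CPM at D11 and 408.1 and 334.7 CPM at D28. The 19 that were not called were not all near 0. HERC5, the ligase that attaches ISG15 to proteins, was at 19.0 and 23.4 CPM at D11 and 17.5 and 29.0 CPM at D28, so the mean CPM at D28 was 1.10-fold that at D11 while the fitted log2 fold change after TMM scaling was -0.15 (edgeR adjusted p = 0.686), and no direction is given.

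Markers of other cell types moved with the days as well. The 9 immune markers summed to 21.6 and 22.6 CPM at D11, 59.9 and 48.8 at D28 and 65.8 and 51.2 at D45, TYROBP had at most 3 UMIs in any library, and the part of immune cells in the member levels was not tested. These markers did not move together. The D28 mean was 5.07-fold the D11 mean for PTPRC and 4.04-fold for CD14. It was 3.61-fold for CX3CR1, 1.86-fold for P2RY12 and 1.40-fold for SPI1. For AIF1 it was 1.02-fold, for CSF1R 1.07-fold and for CD68 1.13-fold. The 6 endothelial markers summed to 21.4 to 40.9 CPM over the libraries, and the genes did not move together. CLDN5, a tight junction protein, was at 0.417 and 0.455 CPM at D11, 15.8 and 10.1 at D28 and 7.05 and 13.1 at D45, and VWF at 3.71 and 3.94, 1.17 and 1.13, and 1.41 and 1.13. The 7 floor plate markers summed to 2039 and 1911 at D11, 851.7 and 1337 at D28 and 251.6 and 356.0 at D45. The 4 fibroblast markers summed to 9.84 and 14.4 CPM at D11, 915.9 and 109.0 at D28 and 423.0 and 1301 at D45. The 4 astrocyte markers summed to 39.4 and 36.0 CPM at D11, 107.1 and 105.1 at D28 and 425.5 and 465.5 at D45, and the 5 neuron markers were at 753.8 and 870.7, 2336 and 1691, and 1673 and 1626. The part of these cell types in the member levels was not tested either.

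At D45 against D11, 20 of the 73 pathway genes rose and 8 fell, against 17.3% of all genes called higher and 17.4% called lower. The median log2 fold change was 0.57, and -0.01 over all genes. STING1, the adaptor of cytosolic DNA sensing, rose (edgeR adjusted p = 0.0101) from 0 and 3 UMIs at D11 to 36 and 81 at D45, which was 0.637 CPM at most. ZBP1 rose by 5.03 (SE 0.51, edgeR adjusted p = 0.000748), and both were at their highest at D45 rather than at D28. IFI44 rose by 4.42 (SE 0.44, edgeR adjusted p = 0.000729), BST2 by 3.19 and LGALS3BP, a secreted glycoprotein, by 2.77 (SE 0.27, edgeR adjusted p = 0.000645). EPSTI1 fell by 2.49 (SE 0.38, edgeR adjusted p = 0.00326) and HERC5 by 2.25 (SE 0.26, edgeR adjusted p = 0.00117), to 5.27 and 6.56 CPM. CGAS, the cytosolic DNA sensor, fell by 1.28, a call lost without any 1 of the D11 and D45 libraries, and that of STING1 was lost without D11 replicate A or D45 replicate B. Without D11 replicates A and B the pathway genes called were 12 and 13, without D28 replicates A and B 47 and 43, and without D45 replicate B 13.

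At D45 against D28, 22 of the 73 pathway genes fell and 0 rose, against 4.95% of all genes called lower and 4.51% called higher. By edgeR 3 of them were higher at an unadjusted p below 0.05, and DESeq2 called 0 higher and 28 lower. The median log2 fold change was -0.68, and -0.03 over all genes. Of the 22, 19 were other interferon-stimulated genes, and the others were DHX58, IRF9 and USP18. USP18 fell by 3.24 (SE 0.32, edgeR adjusted p = 0.00624) and EPSTI1 by 3.78 (SE 0.40, edgeR adjusted p = 0.00702). CXCL10, RSAD2, TRIM22 and TRIM25 also fell, each to 0.0707 CPM or less in both D45 libraries. The TRIM25 and IRF9 calls were each lost in 5 alternatives. The 6 receptor genes had values of -1.27 to 0.35 and were not called. The count rested on the D45 libraries, with 0 called without D45 replicate A, where 27 were lower at an unadjusted p below 0.05 by edgeR, and 4 without D45 replicate B. It was 13 without either D11 library and 42 without D28 replicate B.

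**Figure D4:**
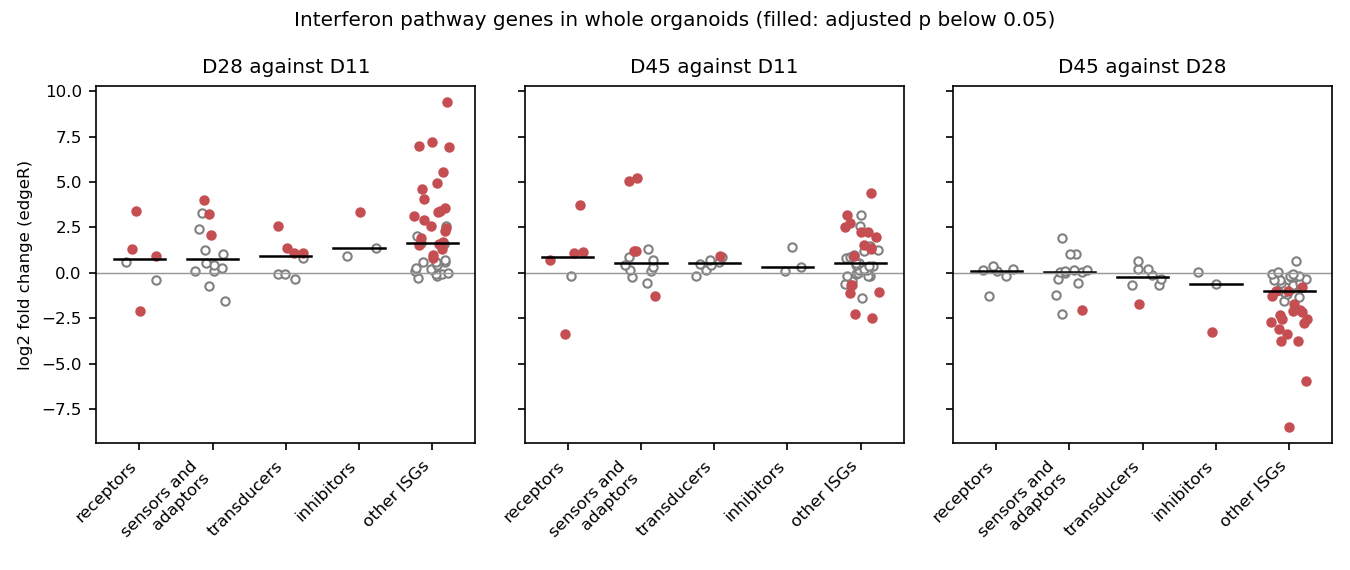
The edgeR log2 fold change in whole organoids of each tested gene of the pathway other than the members, by role, for the 3 comparisons of days; filled points have an adjusted p below 0.05 and lines are medians of a role. Of 73 genes, 34 filled points lie above 0 in the first panel and 22 below 0 in the third, most of them among the other interferon-stimulated genes.

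Within the CORIN gate, 40 of 70 pathway genes rose and 1 fell at D28 against D11, against 13.5% and 10.3% of all genes, and the median log2 fold change was 1.58. The make-up of the gate changed with the days too, and in this comparison FOXA2 was at -1.69 and COL1A1 at 6.03. A change of cell mix and a change within floor plate cells therefore cannot be told apart. Within CORIN+ cells USP18 rose by 4.18 (SE 0.32, edgeR adjusted p = 0.000480), STAT2 by 1.09 (SE 0.26, edgeR adjusted p = 0.0226) and IRF9 by 3.18 (SE 0.40, edgeR adjusted p = 0.00228). At D45 against D11, 27 rose and 6 fell, against 17.8% and 13.3%. SOCS1 rose in that comparison by 2.87 (SE 0.66, edgeR adjusted p = 0.0159), and STING1, MYD88, TICAM1, ZBP1 and DHX58 were the 5 sensors and adaptors that rose. The SOCS1 call was lost without either D11 library, without D45 replicate B and in cells of the CORIN gate alone, where its value was 1.13. The STAT2 call at D28 was lost in 3 alternatives, among them the fits without either D11 library. At D45 against D28, 30 fell and 3 rose, against 8.75% and 10.3%, and the 3 that rose were STING1, MYD88 and the kinase JAK2. In the same comparison the markers FOXA1 and AQP4 were at -2.08 and 5.75. The calls of MYD88 and JAK2 were each lost in 7 alternatives and that of STING1 in 2. Without D45 replicate B the MYD88 log2 fold change was 0.83, and in cells of the CORIN gate alone it was 0.42. In cells of the CORIN gate alone the D45 counts were 18 against D11 and 20 against D28, from 33 in each. Without D45 replicate B the counts were 18 and 14, without D11 replicates A and B the D45 against D11 count was 19 and 19, and without D11 replicate A the D28 against D11 count was 27.

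Within the STMN2 gate, 33 of 72 pathway genes rose and 1 fell at D28 against D11, against 8.57% and 7.46% of all genes, with a median log2 fold change of 1.21. The genes that rose included IRF9, USP18, IFIT1 and B2M, so the change at D28 was also measured in neuron-gated cells. IFIT1, which binds viral RNA, rose by 5.16 (SE 0.34, edgeR adjusted p = 0.000876). At D45 against D11, 19 rose and 5 fell, against 14.2% and 13% of all genes, and at D45 against D28, 19 fell and 0 rose, against 2.72% and 3.38%. In the last comparison 3 were higher at an unadjusted p below 0.05 by edgeR and DESeq2 called 0 higher. The make-up of this gate changed as well, with log2 fold changes of 5.21 for AQP4 and -2.71 for CORIN at D45 against D28. A change of cell mix and a change within neurons therefore cannot be told apart. In cells of the STMN2 gate alone, which leaves out those with a UMI of another gate marker, 21 were called at D28 against D11 and 5 at D45 against D28. Leaving out D11 replicates A and B gave 12 and 14 at D28 against D11, 11 and 6 at D45 against D11 and 8 and 8 at D45 against D28. Leaving out D28 replicates A and B gave 42 and 42 at D45 against D11 and 26 and 37 at D45 against D28, and leaving out D45 replicates A and B gave 12 and 10, and 0 and 3. In the fit with 0, 21 were lower at an unadjusted p below 0.05 by edgeR.

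Gated and other cells of the same library were compared over all 6 libraries, with the library as a term and the same gate effect for all days. In CORIN+ cells 33 of 66 pathway genes were higher and 4 lower, against 17.3% and 16.8% of all genes. EPSTI1 was higher by 2.09 (SE 0.14, edgeR adjusted p = 0.000254), PARP9 by 2.04 (SE 0.23, edgeR adjusted p = 0.000697) and its partner DTX3L by 1.82 (SE 0.14, edgeR adjusted p = 0.000298). IFNAR1 was lower, with a log2 fold change of -0.42 (SE 0.09, edgeR adjusted p = 0.0112), and JAK2, UBE2L6 and PARP12 were the other 3 that were lower. In cells of the CORIN gate alone, against cells in no gate, the IFNAR1 value was -0.19. The calls of IFNAR1, JAK2 and UBE2L6 were then lost. That setting changed both sides, since at D28 it put 2013 and 2737 cells in place of 11452 and 10524 CORIN- cells. Which of these changes moved the values was not tested. The PARP12 call was lost in 6 alternatives. At D28, IFNAR1 was at 41.0 and 49.7 CPM in CORIN+ cells against 79.0 and 94.7 CPM in CORIN- cells, while USP18 was at 37.6 and 31.7 CPM against 7.12 and 8.96 CPM. The count was 24 without D28 replicate B.

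In STMN2+ cells 33 of 67 pathway genes were lower and 4 higher, against 22.4% and 16% of all genes. IFNAR1, JAK2, UBE2L6 and ADAR were the 4 that were higher, IFNAR1 by 0.41 (SE 0.08, edgeR adjusted p = 0.00478), and the ADAR call was lost in 4 alternatives. All 3 inhibitors, USP18, SOCS1 and SOCS3, were lower. In AQP4+ cells, fitted over the 4 libraries of D28 and D45 that held at least 20 such cells, 12 of 67 were higher and 2 lower, against 12.3% and 11.4% of all genes. The share that was higher stood little above the background, and the share that was lower stood below it. The fit took the same effect for both days, so these shares do not describe either day alone. USP18, not called, had ratios of 0.687 and 0.896 at D28 and 3.25 and 2.13 at D45. For B2M, also not called, they were 0.972 and 0.903, and 2.00 and 1.62. Those of IFNAR1 were 0.758 and 0.803, and 0.919 and 0.890. IFNGR2 was higher by 1.22 (SE 0.11, edgeR adjusted p = 0.000696) and LGALS3BP by 1.26 (SE 0.27, edgeR adjusted p = 0.0143). The AQP4 count was 24 without D28 replicate A, 4 without D45 replicate A and 6 without D45 replicate B.

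In COL1A1+ cells 12 of 65 were higher and 0 lower, against 8.35% and 11.2% of all genes, with 3 lower at an unadjusted p below 0.05 by edgeR and 1 called lower by DESeq2. SOCS1 was higher by 2.28 (SE 0.45, edgeR adjusted p = 0.0128), UBA7, the enzyme that activates ISG15, by 2.29 (SE 0.45, edgeR adjusted p = 0.0131) and PSMB8, an immunoproteasome subunit, by 2.57 (SE 0.57, edgeR adjusted p = 0.0194). The COL1A1 count was 1 and 6 without D28 replicates A and B and 2 without either D45 library, and the SOCS1, UBA7 and PSMB8 calls were lost in 3, 3 and 2 alternatives.

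The difference of the D45 against D11 change between CORIN+ and STMN2+ cells, with cells in both gates left out and the library as a term, was called for 6 of 71 pathway genes, 4 higher and 2 lower, against 5.63% and 4.15% of all genes. These shares are close to the background, and without D45 replicate B 3 genes were called. The CORIN+ side held 158 and 303 cells at D45. In this test the markers COL1A1 and LMX1A were at 3.12 and -2.57, so the change of cell mix differed between the gates too. A difference in cell mix and a difference within cells therefore cannot be told apart. The difference, CORIN+ minus STMN2+ cells, was above 0 for NLRC5, SOCS1, IFNGR2 and JAK1 and below 0 for HERC5 and IRF2. HERC5 fell in both gates, so its value below 0 is a larger fall in CORIN+ cells, and IRF2 was called in neither gate. Each of the 6 calls was lost in at least 1 alternative.

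The 10 genes most like the members were taken as those with the largest median, over the 6 libraries, of the log2 ratio of levels between cells with 2 or more members and cells with none, with 5 CPM added. They were IFITM3, B2M, LGALS3BP, a gene without a symbol (ENSSSCG00000032436), CD36, HERC5, HCRT, IFIT1, IFI44 and EPSTI1. Of the 10, 7 are on the pathway list, which held 73 of the 22197 genes tested. The cells were picked by the members, so genes found together with members rank high by that choice. Nothing is read from the count. IFITM3, an antiviral membrane protein, had log2 ratios of 3.27 and 3.45 at D11, 3.01 and 3.52 at D28 and 2.41 and 2.28 at D45, with a median of 3.14. B2M had 3.41 and 4.66 at D11, 2.80 and 3.15 at D28 and 1.72 and 1.32 at D45. Both were above 0 in every library, though the D11 ratios rest on 19 and 16 cells with 2 or more members. HERC5, whose whole-organoid level was not called at D28, had ratios of 2.98 and 3.24 at D11 and 2.49 and 2.90 at D28. CD36, a fatty acid receptor, had ratios of 0.58 and -0.10 at D11, from 36 and 17 UMIs in the cells with 2 or more members, and of 3.59 and 3.25 at D45. HCRT, the hypothalamic peptide orexin, had ratios of 2.97 and 5.08 at D45. It had 0 UMIs in those cells of both D11 libraries, so its D11 ratios are set by the 5 CPM added and are not read, and the same holds for IFI44 in D11 replicate B. The median ratio over all genes was -0.05. Cells with 2 or more members at D28 held a CORIN UMI in 70.3% and 70.7% of cases, against 11.6% and 13.8% of cells with none, and their median UMIs before thinning were 15038 and 15514.5 against 7533 and 8082.5. At D45 the CORIN shares were 13.4% and 16.4%, against 3.10% and 5.11% of cells with none. The AQP4 shares at D45 were 37.2% and 33.7%, against 9.07% and 12.3%. STMN2 shares at D28 were 69.1% and 57.7%, against 86.3% and 79.5% of cells with none. At D45 they were 64.6% and 65.8%, against 78.2% and 74.5%. Depth differed at D45 too, with median UMIs of 14973.5 and 14127 against 7116 and 7891 in cells with none.

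**Figure D5:**
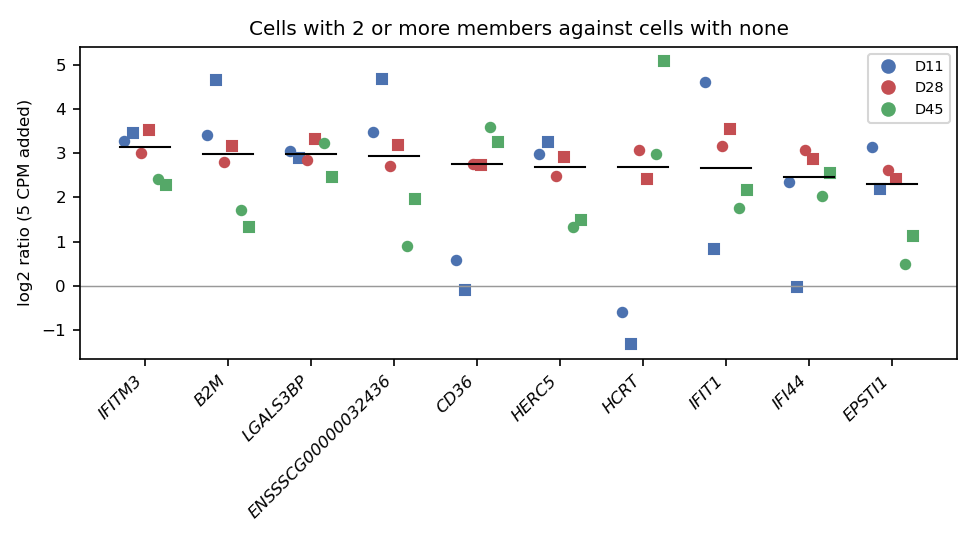
Log2 ratio (5 CPM added) of the level in cells with 2 or more members to that in cells with none for the 10 genes with the largest medians, in each library by day, circles for replicate A, squares for replicate B and a line at the median of the 6 libraries. IFITM3, B2M and LGALS3BP lie above 0 in all 6 libraries, and the D11 points rest on 19 and 16 cells, among which HCRT had 0 UMIs in both libraries and IFI44 in replicate B, so those points reflect the CPM added.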

How the data were processed

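Single-cell 3' RNA libraries of 6 organoid samples were analysed from the gene by barcode UMI counts the authors deposited, made with Cell Ranger 8.0.1 on Sscrofa11.1, and the submitters' processing notes also name Seurat 4.3.0. Cells with 200 to 7000 detected genes and at most 10% UMIs from the 13 named mitochondrial genes were kept, leaving 103519 of 104820 barcodes, beside 103310 cells given in the series description. Symbols came from the files for 16266 genes and from a reference table for 844, and the number of columns from other samples was 0. Counts were summed per library, or per library and gate, and tested with edgeR 4.0.16 after its filter on low counts and TMM scaling. DESeq2 1.42.0 was an alternative. The edgeR fits were also run on simulated counts with the same spread for every gene, a simpler setting than these data, and nothing is read from that. Gate sums needed at least 20 cells. The labels do not say that replicates A and B were separate cultures, so p-values measure the spread between these samples, which may be technical. The members and all lists were chosen with earlier results of these data known. Genes named are the members, the receptors, transducers and inhibitors, the 5 largest rises and falls among called sensors and other interferon-stimulated genes, the ligands as a group, the markers and the 10 genes most like the members; others named were chosen after their values were seen. Results on some of these genes and promoters are not reported here. Alternatives were other scaling, no filter on counts or cells, other thinning depths, pseudocounts, gate rules, a replicate block and leaving out each library. Intervals and limits for a count of 0 (3 UMIs) cover counting error only.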

Additional observations from a re-analysis of the deposited data

Results flagged for a closer look

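The change from D11 to D45 differed between CORIN+ and STMN2+ cells for 6 of 71 genes of the pathway, by edgeR's test of the difference itself with Benjamini-Hochberg adjustment over all genes tested, and over all genes 5.63% were called higher and 4.15% lower, shares close to that of the pathway. NLRC5, a regulator of MHC class I genes, had a difference, CORIN+ minus STMN2+ cells, of 3.92 on the log2 scale (SE 0.87, adjusted p = 0.0221). SOCS1 differed by 1.80 (SE 0.35, adjusted p = 0.0124), IFNGR2 by 1.35 (SE 0.31, adjusted p = 0.0269) and JAK1 by 0.64 (SE 0.17, adjusted p = 0.0473) in the same direction as NLRC5. HERC5, which fell in both gates, differed by -1.17 (SE 0.27, adjusted p = 0.0238) and IRF2 by -0.78 (SE 0.14, adjusted p = 0.00926). The HERC5 and JAK1 calls were each lost in 4 alternatives, those of NLRC5, SOCS1 and IRF2 in 2 and that of IFNGR2 in 1. Without D45 replicate B the NLRC5 difference was 0.89. The CORIN+ side held 158 and 303 cells at D45, and in this test the marker COL1A1 was at 3.12. A difference in cell mix and a difference within cells therefore cannot be told apart, and no cause was tested.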

How the results depend on the processing

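Of the alternatives for single named genes, 1823 kept the direction and side of the threshold, 370 kept the direction only and 1 turned: PSMB8 in CORIN+ cells, D45 against D11, was at -5.72 with exclusive gates. For counts and summary values, 153 stayed and 59 moved, and the cause was not tested. With exclusive gates the counts of pathway genes called were 18 (CORIN+, D45 against D11), 20 (CORIN+, D45 against D28), 21 (STMN2+, D28 against D11), 5 (STMN2+, D45 against D28) and 5 (COL1A1). Where gated cells are set against others, as for COL1A1, exclusive gates also limit the others to cells in no gate. With 2 or more UMIs of the marker they were 9 (STMN2+, D45 against D28), 20 (COL1A1) and 12 (difference between gates), and the last was 3 with no filter on cells. With 5 CPM added, the median member difference of D28 against D11 was 3.71. The share of cells with a member, thinned to 500, to 2000 and unthinned, was 1.27%, 4.58% and 16.3% at D11 and 31.9%, 51.0% and 73.2% at D28, and at D45 it was 21.96% at 2000 and 35.4% unthinned.

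Leaving out 1 library at a time gave 19 to 51, 12 to 47 and 0 to 42 called genes in whole organoids (D28 against D11, D45 against D11, D45 against D28), 27 to 50, 18 to 44 and 14 to 39 in CORIN+ cells, and 12 to 44, 6 to 42 and 0 to 37 in STMN2+ cells. The ranges were 24 to 37 for the CORIN gate, 32 to 37 for STMN2, 4 to 24 for AQP4, 1 to 16 for COL1A1 and 3 to 7 for the difference between gates. Where a day kept 1 library, it was assumed to vary like the others. Member medians ranged from 4.13 to 4.54, 1.23 to 2.14 and -2.66 to -2.001, and shares from 1.97% to 2.50%, 37.8% to 39.3% and 11.11% to 17.9%.

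The labels do not say whether a replicate letter joins libraries of different days. The A minus B deviations correlated at -0.55 (D11, D28), 0.20 (D11, D45) and -0.35 (D28, D45) across genes. Whether the letters mark anything shared was not tested. With the replicate block the counts were 34, 20 and 15 in whole organoids, 36, 30 and 26 in CORIN+ cells and 26, 14 and 9 in STMN2+ cells.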
